A study of Mus musculus with 24 samples.

Results

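Acute phase proteins are secreted proteins whose blood levels shift during inflammation, and fat makes several of them. The 8 genes described here code for such proteins: Hp (haptoglobin, which binds free haemoglobin), Orm1, Orm2 and Orm3 (orosomucoids, carrier proteins also called alpha-1-acid glycoproteins), Saa3 (serum amyloid A3, a lipoprotein-associated apolipoprotein), Lcn2 (lipocalin 2, which binds bacterial siderophores), Lbp (lipopolysaccharide binding protein, which hands endotoxin to CD14) and Serpina3n (a serine protease inhibitor). They were taken by symbol, as 8 of the 37310 genes in the deposited tables. Orm1 stood for the set because it rose most between day 4 and day 8 of the white fat controls. That rise was used to choose the set, so it is described here without a test.

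The cells were stromal vascular cells, the mixed fraction of fat that holds adipocyte precursors, taken from C57BL/6 mice aged 6 weeks, out of the inguinal white fat depot (WAT) or the interscapular brown one (BAT). All cultures, controls included, were induced for 4 days with insulin, dexamethasone (a glucocorticoid) and 3-isobutyl-methylxanthine, and then kept in insulin and T3 (a thyroid hormone) until day 8. EGCG (epigallocatechin gallate, the main catechin of green tea) was given to one arm and the solvent DMSO, the control, to the other, and RNA was taken on day 4 and day 8. The labels give no dose of EGCG. The 8 groups (WAT or BAT, day 4 or day 8, control or EGCG) held 3 libraries each, 24 in all, and the labels do not say whether replicates were separate cell isolations, so the p-values measure the spread between these libraries, which may be technical.

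In the liver, interleukin-6 type cytokines act through gp130, JAK kinases and STAT3, interleukin-1 acts through NF-kappaB, and both meet C/EBP factors and the glucocorticoid receptor at the genes of acute phase proteins. Adipocytes carry the same factors, and C/EBPalpha is also one of the regulators that drive adipocyte differentiation. Haptoglobin, lipocalin 2 and serum amyloid A3 are known as proteins secreted by fat cells.

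Levels are given in FPKM, the reads of a gene scaled by its length and by the total reads on genes, so they can be set against each other between genes. Replicates 1 and 2 stood in 1 deposited table (16 libraries, 39452696 to 52893848 reads on genes) and replicate 3 in a second (8 libraries, 16392420 to 41675643 reads) that was scaled separately. Values are written in the order replicate 1, 2 and 3, and tests used replicates 1 and 2 alone. In the replicate 3 library of WAT day 8 EGCG, 61.0% of the reads fell on 5 genes, against 3.64% to 9.08% in the other replicate 3 libraries, and its FPKM values for Hp, Saa3, Lcn2, Lbp and Serpina3n were below those of replicates 1 and 2 of that group. Fits of both tables with the table as a term, given below, kept this library. Adipocyte identity was checked on 10 marker genes (Adipoq, Fabp4, Plin1 and others). Their summed level was 3590.1 to 4214 FPKM in WAT day 4 controls, 6241 to 7090.4 in WAT day 8 controls, 6087 to 7721 in BAT day 4 controls and 10634 to 11246 in BAT day 8 controls. Ucp1, the uncoupling protein that defines brown fat, was at most 0.423 FPKM outside the BAT day 8 controls, where it was 4.20 to 6.97 FPKM. On day 8 the 4 brown markers (Ucp1, Cidea, Zic1 and Ebf2) summed to 7.81 to 9.97 FPKM in WAT controls and 30.3 to 42.6 FPKM in BAT controls. The 4 white depot markers (Hoxc10, Hoxc9, Hoxc8 and Tbx15) summed to 46.3 to 52.5 FPKM and 17.1 to 18.7 FPKM there. With EGCG on day 8 the white depot sums were 64.1, 63.7 and 24.2 FPKM in WAT and 40.2, 40.1 and 36.9 FPKM in BAT.

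The RefSeq promoter table (build GRCm38.p6) held 5 of the 8 genes, Orm2, Orm3, Saa3, Lcn2 and Serpina3n, while Hp, Orm1 and Lbp are named only. The 250 bases before the start were searched on both strands for the C/EBP motif TTGCNNAA, the STAT motif TTCNNNGAA, the glucocorticoid receptor half-site TGTTCT, the TATA box TATAAA and the kappaB consensus. Of 32851 promoters of this length, 9.56% held the C/EBP motif, 7.02% the STAT motif, 16.1% the half-site, 12.4% the TATA box and 3.90% the kappaB consensus. The C/EBP motif was present in 4 of the 5 genes, the half-site in Orm2 and Serpina3n, and the TATA box in Orm2 and Orm3. None of the 5 windows held the STAT or kappaB letters. The promoters of 4 genes are printed 5′ to 3′ on the strand of the gene, because their levels took different courses under EGCG. The windows are chr7:46715677-46715926 (minus strand) for Saa3, chr2:32387740-32387989 (minus) for Lcn2, chr12:104406458-104406707 (plus) for Serpina3n and chr4:63362199-63362448 (plus) for Orm2. Capitals mark the motif matches, and no match overlapped another:
Saa3: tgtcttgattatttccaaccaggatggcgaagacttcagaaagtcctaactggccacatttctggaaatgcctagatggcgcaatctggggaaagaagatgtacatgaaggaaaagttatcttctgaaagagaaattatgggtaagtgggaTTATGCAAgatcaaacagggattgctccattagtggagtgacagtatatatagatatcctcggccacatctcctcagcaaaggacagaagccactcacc
Lcn2: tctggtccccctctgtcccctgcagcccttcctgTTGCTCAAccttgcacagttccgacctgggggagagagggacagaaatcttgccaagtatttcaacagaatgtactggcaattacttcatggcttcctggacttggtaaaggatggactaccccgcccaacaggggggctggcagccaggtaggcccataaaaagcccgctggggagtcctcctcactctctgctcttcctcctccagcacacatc
Serpina3n: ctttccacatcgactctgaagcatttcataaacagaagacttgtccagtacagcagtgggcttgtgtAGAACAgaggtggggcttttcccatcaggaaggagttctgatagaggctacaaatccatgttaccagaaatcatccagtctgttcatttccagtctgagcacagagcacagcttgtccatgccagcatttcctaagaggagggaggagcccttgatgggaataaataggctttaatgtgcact
Orm2: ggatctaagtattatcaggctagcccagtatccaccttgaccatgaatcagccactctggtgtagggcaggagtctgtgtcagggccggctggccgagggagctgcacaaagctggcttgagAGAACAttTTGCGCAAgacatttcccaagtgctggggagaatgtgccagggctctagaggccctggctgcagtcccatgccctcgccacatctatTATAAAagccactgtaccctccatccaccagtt
The Saa3 match lies 99 to 92 bases before the start on the opposite strand, and the Lcn2 match 216 to 209 bases before the start. Serpina3n held the half-site alone, 183 to 178 bases before the start on the opposite strand. In Orm2 the C/EBP match TTGCGCAA lies 120 to 113 bases before the start and reads the same on both strands, the half-site lies at 128 to 123 bases on the opposite strand, and the TATA box lies at 33 to 28 bases. Orm3 had the C/EBP match TTGCACAA at 121 to 114 bases. A match is a description of the letters, not of binding.

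The 3 Orm genes lie next to each other on chromosome 4 (NCBIM37, the build also called mm9), Orm1 at chr4:63005594-63009197, Orm3 at chr4:63017196-63020545 and Orm2 at chr4:63023483-63026912, all on the plus strand. Their coding sequences, 624 bases in Orm1 and Orm2 and 621 in Orm3, were 89.9% identical between Orm1 and Orm2, 86.1% between Orm1 and Orm3 and 88.0% between Orm2 and Orm3. The first 75 coding bases are shown because they tell the genes apart, with the 15 positions that differ between any of the 3 in capitals:
Orm1: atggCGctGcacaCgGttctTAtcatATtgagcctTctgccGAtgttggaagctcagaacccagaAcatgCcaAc
Orm2: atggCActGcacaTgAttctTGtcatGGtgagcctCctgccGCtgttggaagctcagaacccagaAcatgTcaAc
Orm3: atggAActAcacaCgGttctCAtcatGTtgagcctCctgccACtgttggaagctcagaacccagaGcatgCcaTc
The longest run shared by Orm1 and Orm2, of 104 bases, is shown because a read inside it cannot be assigned to either gene. It spans coding bases 442 to 545 of both genes and 439 to 542 of Orm3, which differs at the 3 positions in capitals:
Orm1: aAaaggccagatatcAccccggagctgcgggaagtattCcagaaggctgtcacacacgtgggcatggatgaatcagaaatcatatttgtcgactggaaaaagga
Orm2: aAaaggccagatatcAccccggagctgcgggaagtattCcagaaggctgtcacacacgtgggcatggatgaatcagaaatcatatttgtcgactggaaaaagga
Orm3: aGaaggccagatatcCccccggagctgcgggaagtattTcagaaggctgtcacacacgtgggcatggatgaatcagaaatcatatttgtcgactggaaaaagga
Of the windows of 100 bases along the Orm1 transcript, 6.95% were also found in Orm2, and of the windows of 50 bases 20.4% of Orm1, 21.8% of Orm2 and 3.59% of Orm3 were found in another Orm gene. For Serpina3n, 6.75% of the windows of 50 bases occurred in other Serpina3 genes, and for Saa3 1.87% in Saa1. Hp and Lcn2 shared none, and Lbp shared 0.242%. How the authors treated reads that fit several genes is not given in the sources used here, so the split between the Orm genes is uncertain.

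Hp (chr8:112099030-112103072, minus strand) was the most abundant of the 8 in the BAT controls, where it took up to 0.920% of the reads on genes of 1 library. Its level was 302, 291 and 402 FPKM in WAT day 4 controls and 1918, 2542 and 2543 FPKM in WAT day 8 controls. In BAT controls it was 1093, 1171 and 1577 FPKM on day 4 and 5339.7, 5770.4 and 6849.7 FPKM on day 8. Every control group stood apart from every other. With EGCG it was 24, 24.5 and 24.3 FPKM in WAT on day 4 and 16.4, 19.6 and 7.50 FPKM on day 8. BAT kept more, at 366, 353 and 397 FPKM on day 4 and 233, 207 and 246 FPKM on day 8. Ordered by the mean of replicates 1 and 2, BAT day 8 control came first and WAT day 8 EGCG last, and the 1 neighbouring pair whose libraries overlapped was BAT day 4 EGCG and WAT day 4 control.

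Orm1 was close to absent on day 4 and present on day 8 in the controls of both depots. In WAT controls it went from 0.453, 0.542 and 0.551 FPKM on day 4 to 70.3, 59.1 and 40.6 FPKM on day 8. In BAT controls it went from 1.54, 1.78 and 2.00 FPKM to 63.9, 61.8 and 49.4 FPKM. With EGCG no library of either depot or day reached 1 FPKM. In WAT with EGCG, replicates 1 and 2 held 0 Orm1 reads on day 4, which allows up to 0.0878 and 0.0830 FPKM, and 0 and 1 read on day 8. Replicate 3 held more, with 4 reads (0.220 FPKM) on day 4 and 3 reads (0.0929 FPKM) on day 8. In BAT with EGCG the level was 0.441, 0.262 and 0.427 FPKM on day 4 and 0.523, 0.463 and 0.149 FPKM on day 8.

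The other orosomucoids were lower. Orm2 reached 3.87, 2.76 and 2.41 FPKM in WAT day 8 controls and 1.69, 1.67 and 2.12 FPKM in BAT day 8 controls, and Orm3 reached 3.88, 7.57 and 1.72 FPKM and 6.95, 8.10 and 3.81 FPKM in the same groups. With EGCG the highest library held 0.340 FPKM of Orm2 and 0.525 FPKM of Orm3. In the day 8 controls Orm1 held 88.0% (exact 95% interval 87.1% to 88.9%) of the reads on the 3 genes in WAT and 87.3% (86.3% to 88.2%) in BAT. On day 4 its share was 69.2% (54.9% to 81.3%) of 52 reads in WAT controls and 55.0% (47.8% to 62.0%) of 200 reads in BAT controls. These intervals cover counting error only.

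Saa3 (chr7:53967368-53971046, minus strand) followed another order, with its highest level in WAT and on day 4. It was 1311, 1344 and 1429 FPKM in WAT day 4 controls and 728, 783 and 637 FPKM in WAT day 8 controls. In BAT controls it was 593, 513 and 492 FPKM on day 4 and 33.7, 36.9 and 32.2 FPKM on day 8. The 4 control groups did not overlap. EGCG left 879, 933 and 739 FPKM in WAT on day 4 and 38.3, 50.6 and 14.3 FPKM on day 8. In BAT it left 160.4, 251 and 198 FPKM on day 4 and 12.7, 10.2 and 7.96 FPKM on day 8, the lowest of the 8 groups.

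Lcn2 (chr2:32240153-32243317, minus strand) was highest in BAT controls, at 162, 170.0 and 190.4 FPKM on day 4 and 122, 127 and 142 FPKM on day 8. WAT controls held 37.3, 30.9 and 47.3 FPKM on day 4 and 40.9, 41.5 and 53.1 FPKM on day 8, and these groups overlapped. With EGCG it was 46.0, 26.3 and 47.6 FPKM in WAT on day 4 and 10.4, 6.79 and 2.13 FPKM on day 8. BAT with EGCG went from 45.1, 46.4 and 49.0 FPKM on day 4 to 3.65, 2.70 and 3.92 FPKM on day 8.

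Lbp (chr2:158132229-158158588, plus strand) differed less between depots. Controls held 21.9, 23.8 and 28.3 FPKM in WAT and 37.1, 37.1 and 39.8 FPKM in BAT on day 4, and 105, 144 and 141 FPKM and 112, 119.7 and 122 FPKM on day 8, where the depots overlapped. With EGCG WAT held 19.8, 20.6 and 16.6 FPKM on day 4 and 23.6, 25.6 and 9.57 FPKM on day 8. BAT with EGCG held 23.9, 32.6 and 31.8 FPKM on day 4 and 10.3, 8.52 and 11.2 FPKM on day 8.

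Serpina3n (chr12:105644939-105652539, plus strand) never fell under 115 FPKM. Controls held 356, 371 and 427 FPKM in WAT day 4, 1201, 1740.3 and 1738 FPKM in WAT day 8, 788, 684 and 717 FPKM in BAT day 4 and 922, 943 and 1003 FPKM in BAT day 8. With EGCG the levels were 1408, 1254 and 1355 FPKM in WAT day 4 and 848, 846 and 295 FPKM in WAT day 8. In BAT they were 1042, 1236 and 1201 FPKM on day 4 and 142, 115 and 155 FPKM on day 8. WAT day 4 EGCG thus stood above its control and overlapped WAT day 8 control.

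**Figure D1:**
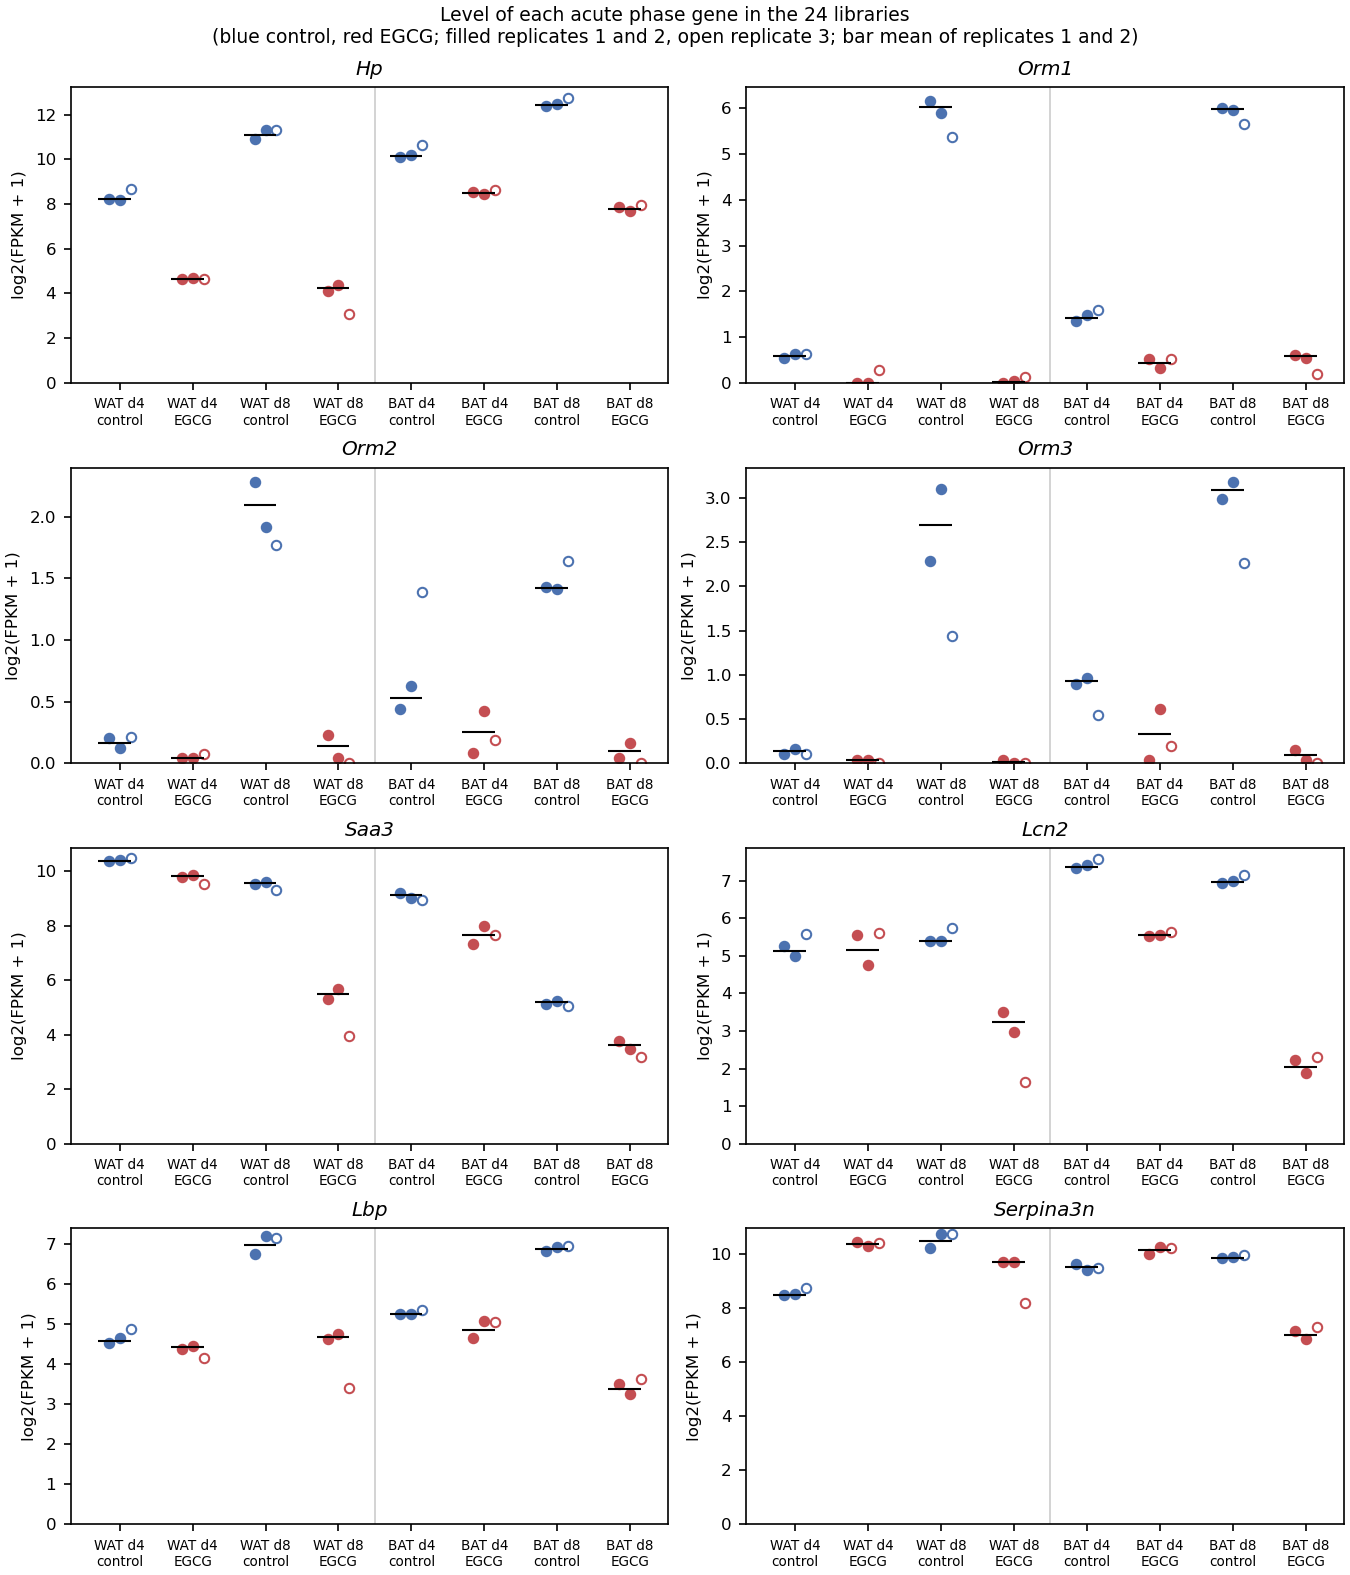
Level of each of the 8 genes as log2(FPKM + 1), 1 point per library, in the 8 groups (control in blue, EGCG in red, WAT left and BAT right of the line; filled points are replicates 1 and 2, open points replicate 3, and the bar is the mean of replicates 1 and 2). On day 8 the 3 EGCG libraries lie below the 3 control libraries for every gene in both depots, and the open point of WAT day 8 EGCG, the library with 61.0% of its reads on 5 genes, lies below the filled ones for Hp, Saa3, Lcn2, Lbp and Serpina3n.

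Differences were tested on log2(FPKM + 1) with limma over the 14095 genes that reached 1 FPKM in at least 2 of the 16 libraries, and a gene was called at a Benjamini-Hochberg adjusted p under 0.05. Hp, Saa3, Lcn2, Lbp and Serpina3n were at 1 FPKM or more in all 24 libraries. Orm2 and Orm3 passed the filter through the day 8 controls alone, and Orm1 through these and the BAT day 4 controls, so their passing favours a difference in comparisons of those groups with others, and counts are also given over the other 5. Orm1 was not tested in any comparison that used WAT controls, because it had been chosen on them. On this scale the change of a low gene is understated.

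With EGCG in WAT on day 4 Hp and Saa3 fell and Serpina3n rose. Hp was 12.3-fold lower (95% counting interval 11.8 to 12.7) and Serpina3n 3.67-fold higher (3.64 to 3.70). The intervals of folds, here and below, cover counting error in replicates 1 and 2 only, and replicate 3 lay outside both of these. The log2 change was -3.56 (SE 0.116, adjusted p 1.18e-09) for Hp and 1.87 (SE 0.154, adjusted p 1.49e-06) for Serpina3n, each in the same direction in replicate 3. Saa3 was lower by a log2 change of -0.55 (SE 0.182, adjusted p 0.0233). Of the 7 genes tested 1 rose and 2 fell, where 34.4% of all genes tested rose and 19.3% fell, and the 5 present in every library gave the same counts. Lcn2 changed by 0.04 (95% interval -0.45 to 0.52) and Lbp by -0.17 (-0.50 to 0.16), without passing the test. Orm1, untested, was at least 11.6-fold lower in replicates 1 and 2, against a floor of 3 reads over the group, while replicate 3 held 0.551 FPKM in the control and 0.220 FPKM with EGCG, a smaller difference on 7 and 4 reads. The 10 adipocyte markers all fell, as Hp did, from a sum of 3590.1 to 4214 FPKM in the controls to 955 to 1133 FPKM with EGCG, and in these cultures fewer adipocytes and less RNA of a gene per adipocyte cannot be told apart. The Saa3 call was lost when any 1 of the 4 WAT day 4 libraries was left out (adjusted p 0.0573 to 0.101), without the filter (0.0623) and with quantile normalization, where the change was -0.26.

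EGCG in WAT on day 8 lowered every gene tested. Hp was 124-fold lower (118 to 129), Saa3 17.2-fold, Lbp 5.01-fold, Lcn2 4.66-fold and Serpina3n 1.70-fold. The log2 changes were -6.87 (SE 0.116, adjusted p 2.55e-12) for Hp, -4.07 (SE 0.182) for Saa3, -2.28 (SE 0.15) for Lbp, -2.16 (SE 0.223) for Lcn2 and -0.77 (SE 0.154, adjusted p 0.000919) for Serpina3n. All 5 genes present in every library fell, where 18.9% of all genes fell and 44.7% rose. Orm2 and Orm3 fell too, which makes 7 of 7 tested, but both had passed the filter through day 8 controls alone. Orm1, untested, held 4550 reads in the controls and 1 read with EGCG in replicates 1 and 2, a ratio of 4652 (834 to 183773). Replicate 3 lay outside that interval, with 40.6 FPKM in the control and 0.0929 FPKM with EGCG. Leaving out any 1 library kept each of these 7 calls. With the third library rescaled to the reads outside its 5 dominant genes, a step chosen after seeing the data, its levels were 19.2 FPKM for Hp, 0.238 for Orm1, 36.7 for Saa3, 5.46 for Lcn2, 24.5 for Lbp and 756 for Serpina3n, all still under the controls, and Orm2 and Orm3 were listed at 0.

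EGCG in BAT on day 4 lowered most of the genes and raised Serpina3n. Hp was 3.15-fold lower (log2 change -1.65, SE 0.116, adjusted p 3.94e-07), Lcn2 3.63-fold (-1.84, SE 0.223, adjusted p 3.36e-05) and Saa3 2.64-fold (-1.45, SE 0.182, adjusted p 4.26e-05). Orm1 was 4.81-fold lower (-0.98, SE 0.0935), but it had passed the filter through control groups alone, which favours a fall. Serpina3n was 1.56-fold higher (0.63, SE 0.154, adjusted p 0.00528). Of 8 genes tested 1 rose and 6 fell, where 27.9% of all genes rose and 20.6% fell, and of the 5 present in every library 1 rose and 4 fell. Lbp (-0.40, adjusted p 0.0457) and Orm3 (-0.61, adjusted p 0.0443) lay just inside the threshold, and both calls were lost without BAT day 4 EGCG replicate 1 (-0.18 and -0.32) and in 11 and 13, respectively, of the 16 fits that left out 1 library. The Serpina3n call was lost without BAT day 4 EGCG replicate 2 (0.50, adjusted p 0.0530) and when both tables were fitted with the table as a term (0.67, adjusted p 0.0634).

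EGCG in BAT on day 8 again lowered all genes tested. Lcn2 was 39.6-fold lower (36.0 to 43.7), Hp 25.3-fold, Lbp 12.4-fold, Serpina3n 7.29-fold and Saa3 3.10-fold. The log2 changes were -4.92 (SE 0.223, adjusted p 2.44e-09) for Lcn2, -4.65 (SE 0.116) for Hp, -3.49 (SE 0.15) for Lbp, -2.86 (SE 0.154) for Serpina3n and -1.55 (SE 0.182, adjusted p 8.99e-06) for Saa3. Orm1 was 128-fold lower (93.1 to 181), with a log2 change of -5.42 (SE 0.0935). Its replicate 3 lay outside that interval, with 49.4 FPKM in the control and 0.1495 FPKM with EGCG. All 5 genes present in every library fell, where 26.1% of all genes fell and 46.5% rose. Orm1, Orm2 and Orm3 fell too, which makes 8 of 8 tested, but they had passed the filter through control groups alone. Each of these calls held when any 1 library was left out.

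**Figure D2:**
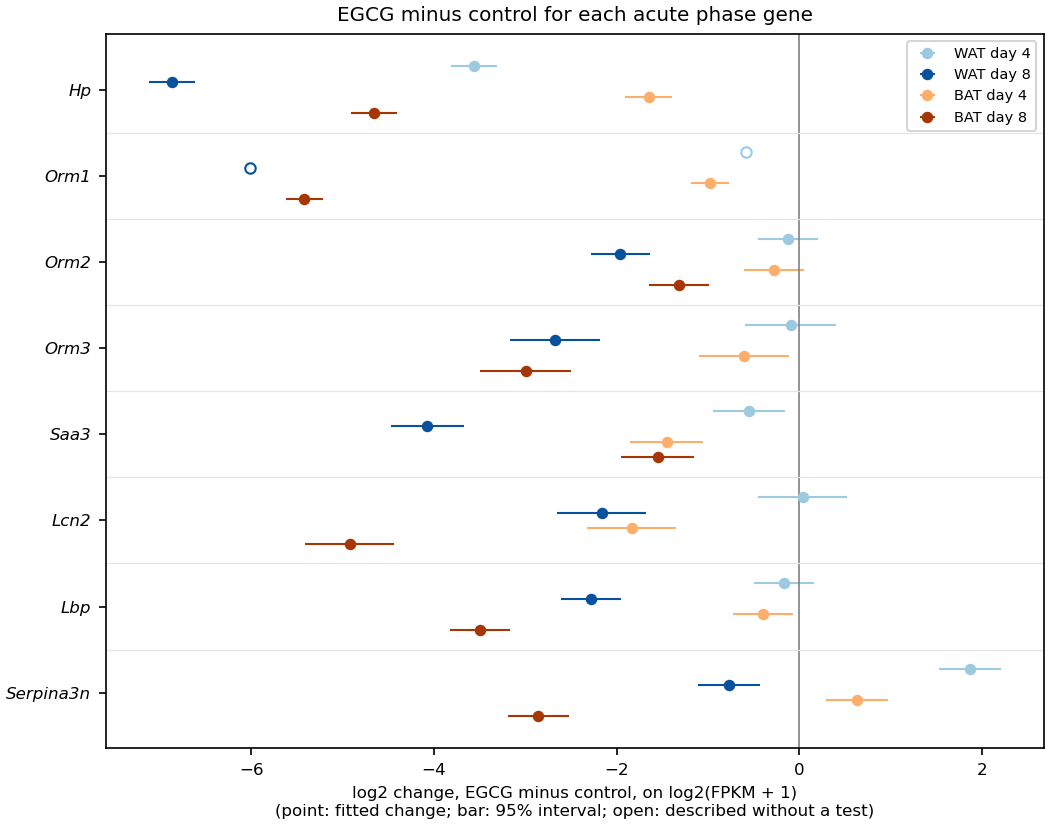
Log2 change with EGCG (EGCG minus control, on log2(FPKM + 1)) of the 8 genes in WAT (blue) and BAT (orange) on day 4 (pale) and day 8 (dark); points are fitted changes, bars 95% intervals, and open points Orm1 in WAT, which was not tested. Serpina3n lies to the right of 0 on day 4 (1.87 and 0.63) and to the left on day 8 (-0.77 and -2.86), and Hp lies farther left in WAT than in BAT on both days.

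The size of the EGCG effect differed between depots for most of the genes. The difference was tested as the BAT change minus the WAT change. Hp fell more in WAT on both days (differences of 1.91, SE 0.164, adjusted p 1.19e-05 on day 4, and 2.21, SE 0.164, adjusted p 2.26e-06 on day 8), and Lcn2 fell more in BAT on both days (-1.87, SE 0.315, adjusted p 0.00130, and -2.76, SE 0.315, adjusted p 4.86e-05). Serpina3n rose more in WAT on day 4 (-1.24, SE 0.218, adjusted p 0.00168) and fell more in BAT on day 8 (-2.08, SE 0.218, adjusted p 2.66e-05). Saa3 fell more in BAT on day 4 (-0.90, SE 0.257, adjusted p 0.0225) and more in WAT on day 8 (2.52, SE 0.257, adjusted p 2.24e-05). Lbp fell more in BAT on day 8 (-1.22, SE 0.212, adjusted p 0.000918), while its day 4 difference was -0.23 (95% interval -0.70 to 0.23). On day 4 the difference was positive and called for 1 of 7 genes and negative for 3, where 12.0% and 16.1% of all genes were called, and for 1 and 3 of the 5 present in every library. On day 8 the counts were 3 positive and 3 negative of 7, where 19.4% and 19.7% of all genes were called, and 2 and 3 of the 5. The third positive call on day 8, Orm2 (0.64, adjusted p 0.0307), was lost without WAT day 8 control replicate 1 (0.45), and with WAT day 8 EGCG replicate 2, BAT day 8 EGCG replicate 2 or either BAT day 8 control left out (0.55 to 0.65). The day 4 Saa3 call was lost without BAT day 4 EGCG replicate 1 (-0.58), BAT day 4 control replicate 1 (-0.80), WAT day 4 EGCG replicate 2 (-0.86) or either WAT day 4 control (-0.88 and -0.92).

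The course from day 4 to day 8 in WAT controls was part of how the genes were chosen and is given as values. Orm1 was 133-fold higher on day 8 (95.6 to 189), Orm3 57.5-fold, Orm2 27.4-fold, Hp 7.40-fold, Lbp 5.39-fold, Serpina3n 3.98-fold and Lcn2 1.20-fold, while Saa3 was 1.76-fold lower. Replicate 1 of the WAT day 8 controls was lower than replicates 2 and 3 in Hp, Lcn2 (40.9 FPKM against 41.5 and 53.1), Lbp and Serpina3n. It was higher than both in Orm1 and Orm2, and lay between them in Orm3 and Saa3. Replicate 1 was also lower in Tsc22d3 (37.4 FPKM against 96.2 and 93.3) and Fkbp5 (52.7 FPKM against 103 and 102), a pair of genes induced by glucocorticoids. Their part in the difference between replicates was not tested.

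In BAT controls 5 of 8 genes rose from day 4 to day 8 and 1 fell, where 28.7% of all genes rose and 40.4% fell. Of the 5 present in every library 2 rose and 1 fell. Hp was 4.88-fold higher (log2 change 2.29, SE 0.116, adjusted p 9.41e-09) and Lbp 3.11-fold (1.62, SE 0.15, adjusted p 1.52e-06). Orm2 and Orm3 rose too, but had passed the filter through the day 8 controls alone, which favours a rise. Orm1, which had passed through these and the BAT day 4 controls, was 37.8-fold higher (4.59, SE 0.0935). Saa3 was 15.6-fold lower (-3.93, SE 0.182, adjusted p 4.87e-09). Serpina3n (0.34, adjusted p 0.0658) and Lcn2 (-0.41, adjusted p 0.123) did not pass the test. Serpina3n passed it with median-ratio scaling (0.52, adjusted p 0.0109) or without either WAT day 8 control (adjusted p 0.0143), and both genes passed it with voom on the recovered reads, Serpina3n at an adjusted p of 0.0341 and Lcn2 at 0.0184. Lcn2 also passed without either WAT day 4 EGCG library (adjusted p 0.0387).

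With EGCG none of the 8 genes was called higher on day 8 than on day 4 in either depot, where 31.8% of all genes in WAT and 29.7% in BAT were called higher by limma. Orm1, Orm2 and Orm3 were below 1 FPKM in every EGCG library. On this scale they could hardly be called in either direction, so the count rests on the other 5. At an unadjusted p under 0.05 the count was also 0 in both depots, as it was with voom. Lbp in WAT was called higher (0.40, adjusted p 0.0179) when both tables were fitted without the library in which 61.0% of reads fell on 5 genes. In WAT with EGCG 4 of 8 fell, all among the 5 present in every library, where 27.7% of all genes fell: Saa3 (log2 change -4.33, SE 0.182, adjusted p 6.42e-09), Lcn2 (-1.93, SE 0.223, adjusted p 1.64e-05), Serpina3n (-0.65, SE 0.154, adjusted p 0.00330) and Hp (-0.42, SE 0.116, adjusted p 0.00876). The Hp call was lost without WAT day 8 EGCG replicate 1 (-0.29, adjusted p 0.0924). Lbp changed by 0.27 (95% interval -0.06 to 0.60). Orm1 changed by 0.02 (-0.18 to 0.23) on 1 read against 0 in replicates 1 and 2, so this interval does not bound its fold. In BAT with EGCG 5 of 8 fell, the 5 present in every library, where 28.2% of all genes fell. These were Saa3 (-4.03, SE 0.182), Lcn2 (-3.50, SE 0.223), Serpina3n (-3.14, SE 0.154), Lbp (-1.48, SE 0.15) and Hp (-0.71, SE 0.116, adjusted p 0.000246). Orm1 changed by 0.15 (-0.06 to 0.35), on 38 reads on day 8 against 25 on day 4 in replicates 1 and 2.

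**Figure D3:**
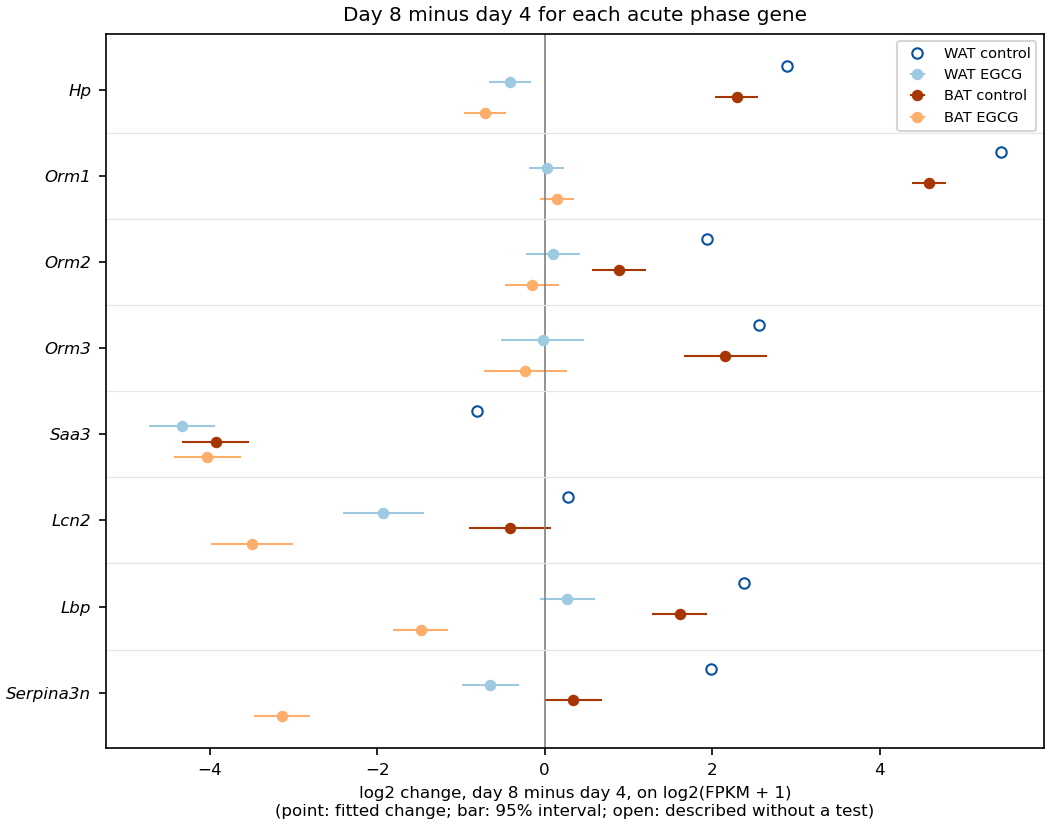
Log2 change from day 4 to day 8 (day 8 minus day 4, on log2(FPKM + 1)) of the 8 genes in WAT (blue) and BAT (orange), controls dark and EGCG pale; points are fitted changes, bars 95% intervals, and open points the WAT controls, which were not tested. The control points of Hp, the Orm genes and Lbp lie to the right of 0, and those of Saa3 lie to the left in both depots and with either treatment, between -4.33 and -0.81.

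Between depots the controls differed in most of the genes on day 4. Of 7 tested, 5 were higher in BAT and 1 in WAT, where 41.4% and 14.4% of all genes were called, and of the 5 present in every library 4 and 1. Lcn2 was 4.84-fold higher in BAT (log2 difference 2.26, SE 0.223, adjusted p 9.45e-06), Hp 3.82-fold (1.93, SE 0.116, adjusted p 2.62e-07), Serpina3n 2.02-fold (1.01, SE 0.154, adjusted p 0.000207) and Lbp 1.63-fold (0.68, SE 0.15, adjusted p 0.00259). Saa3 was 2.41-fold lower in BAT (-1.27, SE 0.182, adjusted p 0.000137). The fifth, Orm3 (0.80, adjusted p 0.0109), was lost without WAT day 4 control replicate 1 or BAT day 4 control replicate 2 (both 0.77, adjusted p 0.0508 and 0.0521). The Lbp call was lost when both tables were fitted with the table as a term (0.61, adjusted p 0.0737).

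On day 8 the depots of the controls differed most in Saa3. It was 21.4-fold lower in BAT (log2 difference -4.38, SE 0.182, adjusted p 9.37e-09), with 728, 783 and 637 FPKM in WAT against 33.7, 36.9 and 32.2 FPKM in BAT. Of 7 genes tested, 2 were higher in BAT and 3 in WAT, where 31.6% and 22.0% of all genes were called, and of the 5 present in every library 2 and 2. Hp (1.33, SE 0.116, adjusted p 2.16e-06) and Lcn2 (1.57, SE 0.223, adjusted p 0.000104) were higher in BAT, and Serpina3n (-0.63, SE 0.154, adjusted p 0.00454) and Orm2 (-0.68, SE 0.148, adjusted p 0.00234) were lower. The Serpina3n call was lost with both tables and the table as a term (-0.69, adjusted p 0.0517). The Orm2 call was lost with a pseudocount of 0.1 FPKM (adjusted p 0.156). The sum of the 3 Orm genes, most of it Orm1 reads, differed by -0.03 and is given without a test, as Orm1 is. Lbp differed by -0.09 (95% interval -0.42 to 0.24). Orm3 differed by 0.40 (-0.10 to 0.89) and was called only without WAT day 8 control replicate 2 (0.80, adjusted p 0.00470). Orm1, untested, was 1.04-fold lower in BAT (0.995 to 1.08, counting error only), and replicate 3 had the opposite order.

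With EGCG the depot order of Hp and Saa3 stayed as in the controls. On day 4, 3 of 8 genes were higher in BAT and 1 in WAT, where 32.9% and 15.8% of all genes were called, and of the 5 present in every library 2 and 1. Hp was higher in BAT (log2 difference 3.84, SE 0.116, adjusted p 3.14e-09) and Saa3 lower (-2.17, SE 0.182, adjusted p 2.49e-06). Orm1 was higher in BAT (0.43, adjusted p 0.00264), a call lost with both tables and the table as a term (0.36, adjusted p 0.152). The Lbp call (0.45, adjusted p 0.0286) was lost without BAT day 4 EGCG replicate 2 (0.23) or either WAT day 4 EGCG library (0.42 and 0.47), and Lcn2 (0.39, adjusted p 0.176) was called only without WAT day 4 EGCG replicate 1 (0.78, adjusted p 0.00872). On day 8, 2 of 8 were higher in BAT and 4 in WAT, where 24.4% and 14.0% of all genes were called, and of the 5 present in every library 1 and 4. Hp was higher in BAT (3.54, SE 0.116, adjusted p 4.30e-09), as was Orm1 (0.56, SE 0.0935, adjusted p 0.000723), and Serpina3n (-2.72, SE 0.154, adjusted p 2.31e-07), Saa3 (-1.86, SE 0.182), Lbp (-1.30, SE 0.15) and Lcn2 (-1.18, SE 0.223, adjusted p 0.00153) were lower. With both tables and the table as a term the day 8 calls of Orm1 (0.39, adjusted p 0.0546) and Lcn2 (-0.57, adjusted p 0.0979) were lost. In replicate 3, Lcn2 and Lbp had the opposite order on day 8, with the WAT library in which 61.0% of reads fell on 5 genes.

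Other proteins of the acute phase were read from a list of 34 genes, of which 20 passed the filter. With EGCG, 5 rose and 10 fell in WAT on day 4 and 1 rose and 15 fell on day 8, and 3 rose and 10 fell in BAT on day 4 and 0 rose and 17 fell on day 8. The median log2 change of the list was -0.34, -1.69, -0.60 and -1.97 in that order, against 0.09, 0.17, 0.03 and 0.17 over all genes tested. In the same order 34.4%, 44.7%, 27.9% and 46.5% of all genes rose and 19.3%, 18.9%, 20.6% and 26.1% fell, and these shares stand beside the counts of the other lists too. C3, the central component of complement, fell in all 4 comparisons. It was 595, 818 and 696 FPKM in WAT day 8 controls and 11.6, 12.3 and 4.41 FPKM with EGCG (log2 change -5.75, SE 0.142, adjusted p 4.37e-11). In BAT on day 8 it was 408, 396 and 386 FPKM in controls and 5.55, 5.26 and 6.13 FPKM with EGCG (-5.98, SE 0.142, adjusted p 1.95e-11).

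A2m, the protease inhibitor alpha-2-macroglobulin, was the largest riser of that list in WAT on day 4. It went from 19.5, 22.3 and 22.8 FPKM in controls to 215, 196.6 and 209 FPKM with EGCG (log2 change 3.24, SE 0.244, adjusted p 7.48e-07), next to the metallothionein gene Mt2 (1.43, SE 0.144, adjusted p 7.34e-06). In BAT on day 8 A2m fell from 48.1, 48.0 and 46.6 FPKM to 0.873, 0.547 and 0.893 FPKM (-4.85, SE 0.244, adjusted p 5.92e-09). The relatives of Serpina3n, Serpina3c and Serpina3m, fell in WAT on day 8 (-3.85, SE 0.161, and -3.56, SE 0.260), while Serpina3m rose in WAT on day 4 (1.23, SE 0.260, adjusted p 0.00186). Saa2, a serum amyloid A of the liver type, fell in BAT on day 4 from 9.01, 8.31 and 8.88 FPKM to 0.784, 1.70 and 1.17 FPKM (-2.14, SE 0.198, adjusted p 3.59e-06).

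Of 12 cytokine genes of the acute phase 8 passed the filter, and 5 of them rose in each of the 4 EGCG comparisons while 2 fell on day 4 and 1 on day 8 in each depot, where 34.4% and 44.7% of all genes rose in WAT and 27.9% and 46.5% in BAT, with median log2 changes of 0.61 and 0.91 in WAT and 1.20 and 1.30 in BAT on day 4 and day 8. The gene of interleukin-6, Il6, was 1.40, 2.45 and 1.35 FPKM in BAT day 8 controls and 17.8, 17.6 and 14.4 FPKM with EGCG (log2 change 2.70, SE 0.202, adjusted p 1.71e-07). In BAT on day 4 it went from 4.25, 3.25 and 1.64 FPKM to 12.8, 13.3 and 10.6 FPKM (1.57, SE 0.202, adjusted p 5.15e-05). Il11, a cytokine that signals through the same receptor chain, rose in WAT on day 4 from 0.916, 1.11 and 0.437 FPKM to 16.3, 13.1 and 14.7 FPKM (2.95, SE 0.225, adjusted p 8.18e-07). Lif, which also uses that chain, rose in BAT on day 8 (2.11, SE 0.0974, adjusted p 2.84e-09). Il1rn, the interleukin-1 receptor antagonist, fell in all 4 comparisons (-1.24 and -1.50 in WAT, -0.80 and -1.85 in BAT, SE 0.152 each).

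Among receptors and signal carriers some genes rose and others fell. Of 16 receptors and co-receptors 15 passed the filter, of which 6 rose and 5 fell in WAT on day 4, 6 and 7 on day 8, 4 and 4 in BAT on day 4, and 7 and 5 on day 8, with median log2 changes of 0.03, -0.03, 0.10 and 0.21. Osmr, the oncostatin M receptor, rose on day 4 in WAT (1.19, SE 0.0927, adjusted p 9.86e-07) and BAT (0.95, SE 0.0927, adjusted p 5.80e-06), and Il6ra, the interleukin-6 receptor, fell in BAT on day 8 (-1.08, SE 0.116, adjusted p 4.40e-06). Of 20 transcription factors and kinases 18 passed, of which 11 rose and 2 fell in WAT on day 4, 8 and 6 on day 8, 9 and 4 in BAT on day 4, and 6 and 9 on day 8, with medians of 0.26, 0.09, 0.14 and -0.05. Cebpa fell in each, by log2 changes of -2.29 and -2.69 in WAT and -1.72 and -2.98 in BAT (SE 0.10 each). Its level in WAT day 8 was 116, 137 and 141 FPKM in controls and 19.8, 17.6 and 8.37 FPKM with EGCG. Cebpd, another C/EBP factor, was lower with EGCG on day 8 in WAT (-0.88, SE 0.0951) and BAT (-0.90, SE 0.0951), and higher on day 4 (0.49 in WAT and 0.31 in BAT).

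All 15 feedback inhibitors passed the filter, and 2 rose and 4 fell in WAT on day 4, 2 and 7 on day 8, 6 and 0 in BAT on day 4, and 6 and 7 on day 8, with medians of 0.02, -0.35, 0.20 and -0.02. Socs3, the inhibitor induced by STAT3, rose in WAT on day 4 from 7.35, 8.57 and 9.61 FPKM to 37.4, 29.5 and 43.4 FPKM (log2 change 1.94, SE 0.194, adjusted p 7.19e-06). Fkbp5 fell in BAT on day 8 from 145, 132 and 139 FPKM to 24.8, 22.2 and 26.4 FPKM (-2.51, SE 0.210, adjusted p 4.55e-07). Among 12 receptors and partners of the 8 proteins, 8 passed the filter. Hmox1, the haem oxygenase that breaks down the haem of haptoglobin-bound haemoglobin, rose in all 4 comparisons (2.49 and 2.04 in WAT, 1.99 and 1.54 in BAT, SE 0.0784 each). Mmp9, the protease that lipocalin 2 binds, fell in BAT on both days (-1.69 and -3.10, SE 0.123) and in WAT on day 8 (-1.24). In all, 2 rose and 3 fell in WAT on day 4, 1 and 7 on day 8, 1 and 4 in BAT on day 4, and 1 and 5 on day 8, with medians of -0.18, -0.60, -0.26 and -0.40.

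**Figure D4:**
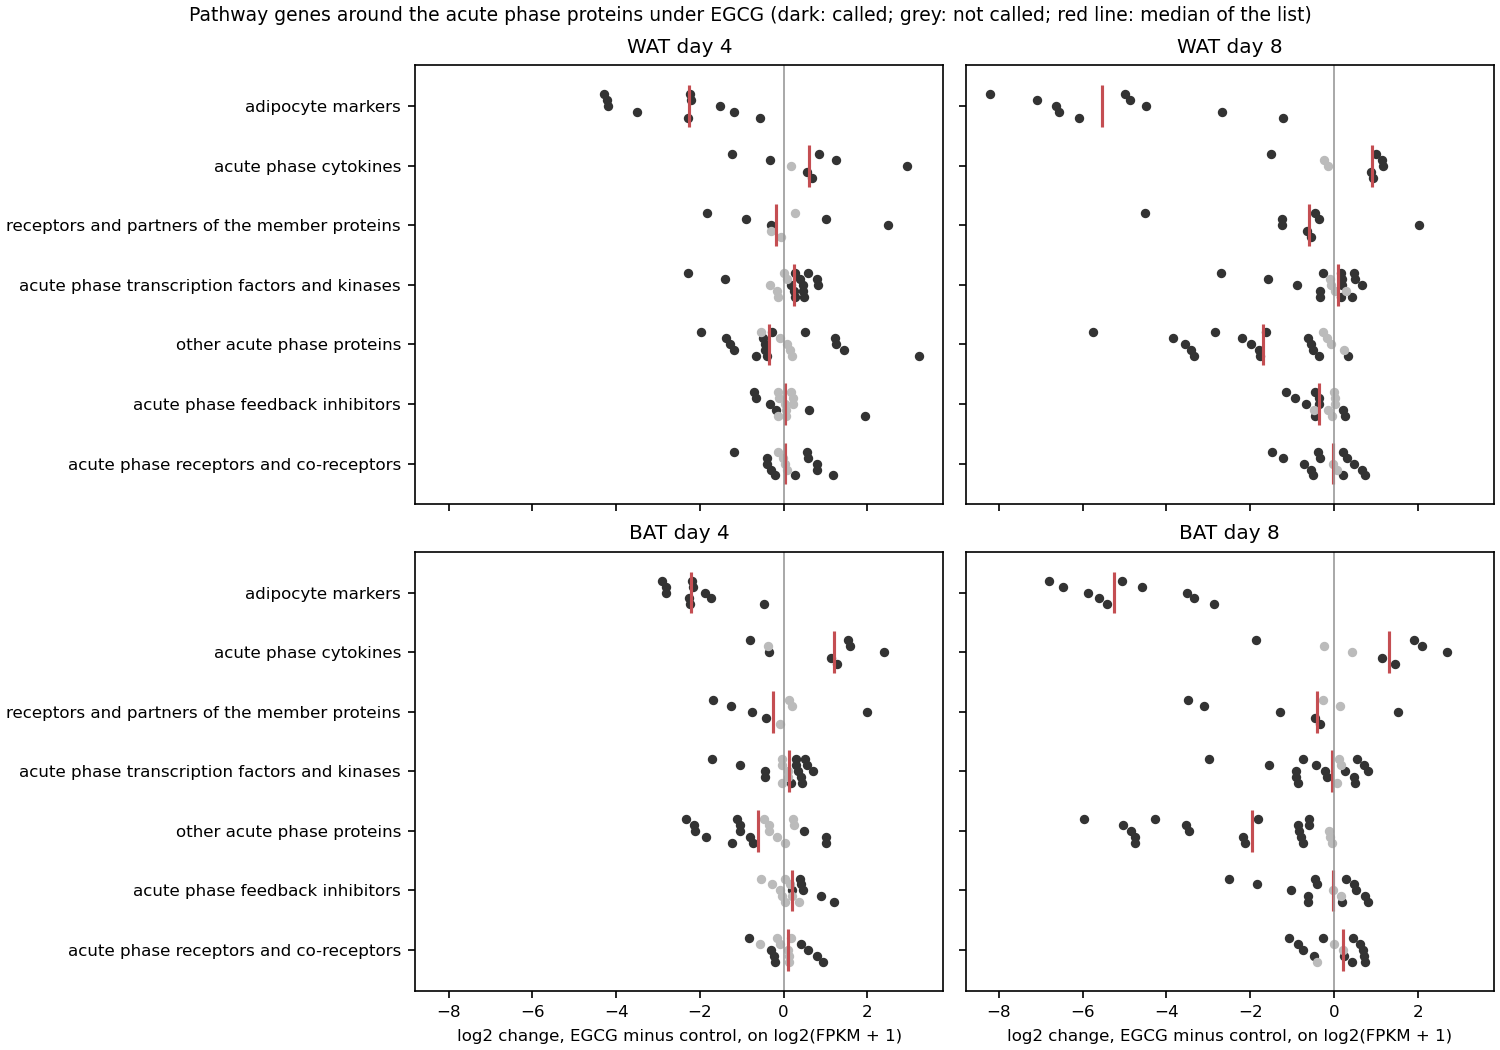
Log2 change with EGCG (EGCG minus control, on log2(FPKM + 1)) of each tested gene in 7 lists, 1 panel per depot and day; dark points were called, grey points were not, and the red line is the list's median. The adipocyte markers lie left of 0 in all 4 panels (medians -2.27, -5.54, -2.21 and -5.24), and the cytokine medians lie right of 0 (0.61 to 1.30).

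Adipocyte markers fell as well. All 10 of the list fell in each EGCG comparison, and their summed level was 224 to 695 FPKM in WAT day 8 EGCG and 441 to 451 FPKM in BAT day 8 EGCG. Macrophage markers, 10 genes led by Lyz2, summed to 82.0 to 90.7 FPKM in WAT day 4 controls and 196 to 213 FPKM with EGCG, and to 192 to 216 and 410.0 to 494 FPKM in BAT. On day 8 they were lower with EGCG, at 26.1 to 61.1 against 137 to 174 FPKM in WAT and 60.9 to 62.1 against 134 to 149 FPKM in BAT. Of the 10 macrophage markers, 4 to 8 reached 1 FPKM in both replicates 1 and 2 of a group. Ptprc, the common leukocyte gene on that list, was at most 0.857 FPKM in every library. Endothelial markers (5 genes) summed to 13.9 to 15.2 FPKM in WAT day 4 controls and 31.0 to 34.8 FPKM with EGCG, and to 11.0 to 13.2 and 32.9 to 37.9 FPKM in BAT. Preadipocyte markers (4 genes) summed to 273 to 302 FPKM in WAT day 4 controls and 411 to 446 FPKM with EGCG. In BAT on day 4 the ranges overlapped, at 242 to 313 FPKM in controls and 262 to 314 FPKM with EGCG. On day 8 the sums were 1067 to 1225 FPKM in controls against 218 to 652 FPKM with EGCG in WAT, and 349 to 367 against 202 to 211 FPKM in BAT. The part of these markers in the changes of the 8 genes was not tested. Neutrophil markers summed to at most 2.05 FPKM in every library, and of the hepatocyte markers Alb was at most 0.119 FPKM and Ttr at most 0.0452 FPKM, while Ahsg reached 13.6 FPKM. Mesothelial markers summed to 17.5 to 30.7 FPKM in WAT day 4 EGCG against 7.51 to 9.74 in its controls, nearly all of it Krt19, with Upk3b at most 0.0107 FPKM.

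Across the 16 libraries of replicates 1 and 2, the 8 genes did not share 1 pattern. Pearson's r of log2(FPKM + 1), given as a description over libraries that share groups, was 0.97 between Orm1 and Orm3 and 0.90 between Orm1 and Lbp, but 0.01 between Hp and Saa3 and 0.08 between Hp and Serpina3n. Among all tested genes the closest to Hp were Scd1 (r 0.97), a desaturase of fat synthesis, and Adrb3 (0.97), the beta-3 adrenergic receptor of adipocytes. Lbp was closest to Serping1 (0.99), the C1 inhibitor gene, and Serpina3n to H6pd (0.96), which supplies NADPH for glucocorticoid activation. Saa3 was closest to Slc7a8 (0.98), an amino acid transporter, Lcn2 to Abhd5 (0.96), a coactivator of fat breakdown, Orm1 to Vnn3 (0.98), Orm3 to Slc25a1 (0.99), the citrate carrier, and Orm2 to Gbp5 (0.97).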

How the data were processed

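The authors deposited gene tables in FPKM for 24 libraries of total RNA, replicates 1 and 2 in 1 table and replicate 3 in another. The submitters' processing notes name FastQC 0.11.9, HISAT2 2.2.0, HTSeq 0.11 and mm9, without options or strand. The given paper describes another experiment. The steps below were computed for this report. Gene symbols came from GENCODE vM1. All deposited FPKM values gave whole reads (100% within 0.01), which set library totals, floors of 3 reads and exact intervals, all covering counting error only. Groups followed the labels. limma 3.58.1 (R 4.3.3, lmFit and eBayes with trend, two-sided, Benjamini-Hochberg within a comparison) was fitted to log2(FPKM + 1) of replicates 1 and 2, and checked on simulated counts. Replicate 3 gave values and direction only. Alternatives were another pseudocount and filter, other scalings, voom on recovered reads, both tables, summed Orm genes, a replicate block and leaving out each library. In each EGCG comparison the text names up to 3 called genes per list with 5 FPKM or more, by size of change, and adds other comparisons of those genes. A gene that this rule named is not reported here. The members and lists were chosen with earlier results of these data known.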

Additional observations from a re-analysis of the deposited data

Results flagged for a closer look

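These 10 results stood out because the EGCG effect differed between the depots by the interaction term of the limma fit (BAT change minus WAT change, log2). On day 4 the difference was 1.91 for Hp (adjusted p 1.19e-05), -1.87 for Lcn2 (0.00130), -1.24 for Serpina3n (0.00168) and -0.90 for Saa3 (0.0225). On day 8 it was 2.52 for Saa3 (2.24e-05), 2.21 for Hp (2.26e-06), 0.64 for Orm2 (0.0307), -2.76 for Lcn2 (4.86e-05), -2.08 for Serpina3n (2.66e-05) and -1.22 for Lbp (0.000918). Saa3 had opposite signs on the 2 days. Orm2 had passed the filter through the day 8 controls alone. The fit of both tables with the table as a term kept the third WAT day 8 EGCG library, in which 61.0% of reads fell on 5 genes. Over all values of the 8 genes, 13 were no longer called in that fit, and 2 when this library was left out. With both tables and the table as a term, Serpina3n (adjusted p 0.0652) and Saa3 (0.348) on day 4 and Orm2 (0.175) and Lbp (0.164) on day 8 were no longer called, and 5 of the 16 fits that left out 1 library lost Saa3 on day 4 and 5 lost Orm2 on day 8.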

How the results depend on the processing

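Over 2730 values of the 8 genes under the alternatives, 2569 kept their direction and call or moved within the spread between replicates, 72 were no longer called, 30 became called, 55 moved and 4 changed sign. Of the 2569, 1716 came from leaving out 1 library, which cannot move a change between groups that lack it, and 112 from the replicate block. With both tables and the table as a term, 91 values stayed, 13 were no longer called, 2 became called and 6 moved. That fit kept the third WAT day 8 EGCG library, in which 61.0% of reads fell on 5 genes. Without this library 98 values stayed, 2 were no longer called, 6 became called and 6 moved. With both tables and the table as a term, the genes called went from 4 to 2 for BAT against WAT on day 4 with EGCG and from 4 to 2 for the depot difference on day 4. The cause was not tested. In that fit the depot differences of Serpina3n (-1.13, adjusted p 0.0652) and Saa3 (-0.72, 0.348) on day 4 and of Lbp (-0.67, 0.164) and Orm2 (0.47, 0.175) on day 8 were no longer called. Orm2 on day 8 also lost its call with voom (0.718) and a pseudocount of 0.1 FPKM (0.461). The Orm1 depot difference on day 4 (-0.40) became 0.59 with a pseudocount of 0.1 FPKM and 2.89 with voom. The other 2 sign changes came from putting the sum of the 3 Orm genes in the place of 1 gene, and are not changes of that gene. The sum gave 0.53 between depots on day 8 with EGCG, where Orm2 gave -0.04. For the depot difference on day 8 the sum gave 0.56, where Orm3 gave -0.32. Replicates 1 and 2 showed no deviation by replicate number shared between groups (28 correlations of deviations between groups, -0.0790 to 0.0810). Whether groups came from the same cells cannot be told from this. The replicate block left 3, 7, 7 and 8 genes called in the EGCG comparisons and changed no call. Depth limits the Orm genes with EGCG, where the 3 together held 4 to 61 reads a group.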
